A study of Homo sapiens with 20 samples.

Results

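Integrins are the cell surface receptors that hold cells to the extracellular matrix, and laminins are the trimeric glycoproteins of basement membranes that many of them bind. All integrin subunit and laminin chain genes of the count tables were taken by name: ITGA or ITGB followed by digits or by one of the letters V, D, E, L, M and X, and LAMA, LAMB or LAMC followed by 1 digit. This gave 37 of the 23368 genes, made up of 17 integrin α subunits, 8 integrin β subunits and 12 laminin chains. Membership followed from the names alone, with no cut on a measured value. The members were nevertheless chosen with earlier results of these data known. The platelet subunit ITGA2B, the other partner of ITGB3, has a letter after its digit and falls outside the rule.

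An integrin is a dimer of 1 α and 1 β subunit, and the pairing sets what it binds. ITGB1 pairs with most α subunits, and an α subunit that outnumbers its partner is kept inside the cell, so transcript levels of a dimer are best read side by side. ITGA1, ITGA2, ITGA10 and ITGA11 with ITGB1 are collagen receptors, ITGA3, ITGA6 and ITGA7 with ITGB1 and ITGA6 with ITGB4 are laminin receptors, and ITGA5 with ITGB1 is the main fibronectin receptor. ITGAV with ITGB1, ITGB3, ITGB5, ITGB6 or ITGB8 binds the RGD sequence of vitronectin, fibronectin and the latency peptide of TGFβ, and the ITGB6 and ITGB8 dimers are known for releasing active TGFβ from it. Laminins are secreted as αβγ trimers named by their chains: LAMA3 and LAMB3 are the α3 and β3 chains of laminin-332, while laminin-511 is made of LAMA5, LAMB1 and LAMC1, and laminin-411 of LAMA4, LAMB1 and LAMC1. During epithelial-to-mesenchymal transition, which TGFβ can set off in carcinoma cells, epithelial cells are known to exchange integrins of hemidesmosomes for receptors of fibronectin and fibrillar collagen.

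Poly(A) RNA was sequenced from Panc1 cells, which come from a carcinoma of the pancreatic duct, and from A549 cells, which come from an adenocarcinoma of the lung, both entered in the labels as immortalized with SV40 large T antigen. Each line had 4 groups: siKLF10+TGFβ (an siRNA named for KLF10, with TGFβ), TGFβ (with no siRNA named in its labels), siKLF10 without TGFβ, and siCont (the control siRNA, without TGFβ). Whether the TGFβ group received a control siRNA is not stated. If it did not, its contrasts with siCont and with siKLF10+TGFβ also hold the effect of adding an siRNA. That effect cannot be told apart from the named effect there, or in line differences built on those contrasts. TGFβ treatment lasted 72 h at 5 ng/ml. Panc1 had 3 libraries in each group (A, B and C) and A549 had 2 (A and B), which makes 20, and since the labels do not tell whether they came from separate cultures, p-values measure the spread between libraries, which may be technical. KLF10 is a zinc finger transcription factor that TGFβ induces and that the series title describes as a brake on the TGFβ-induced transition, so the comparisons ask what TGFβ does, what the siRNA does, and whether the siRNA alters the TGFβ response.

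Panc1 libraries held 11152625 to 15571367 counts in genes and A549 libraries 6846761 to 19070551. Levels are in CPM, counts scaled to the TMM-normalized library size, and a floor of 3 counts stood at 0.193 to 0.269 CPM in Panc1 and at 0.157 to 0.438 CPM in A549. Floors cover counting error only. With TGFβ, the KLF10 level of Panc1 was 100.02, 101 and 104 CPM in siKLF10+TGFβ libraries, against 193, 188 and 207 CPM in TGFβ libraries, a fall of 1.92-fold (log2 difference −0.94 ± 0.0593, adjusted p = 4.96e-11). Without TGFβ it was 82.9, 80.7 and 77.2 CPM in siKLF10 libraries, against 139.7, 137 and 130.5 CPM in siCont libraries, a fall of 1.69-fold (log2 difference −0.76 ± 0.0603, adjusted p = 2.58e-09). In A549 it was 103 and 108 CPM in libraries labelled siKLF10, against 113 and 109 CPM in siCont libraries, a log2 difference of −0.05 ± 0.0802 (adjusted p = 0.743), and under TGFβ the difference was −0.29 ± 0.0779 (adjusted p = 0.00775). The KLF10 transcript therefore goes against the A549 label without TGFβ, and those groups are called libraries labelled siKLF10 throughout.

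Of 5 epithelial markers, the keratins KRT8 and KRT18 were at no less than 246 and 122 CPM in every Panc1 library and 878 and 634 CPM in every A549 library. The others were uneven: KRT19 was at 36.3 to 236 CPM in Panc1 and 0.394 to 4.46 CPM in A549, EPCAM at 1.91 to 12.2 CPM and 19.7 to 65.7 CPM, and CDH1 at 1.56 to 18.6 CPM and 36.7 to 333 CPM. The sum of all 5 was 701 to 824 CPM in Panc1 siKLF10+TGFβ, 435 to 459.5 CPM in TGFβ, 878 to 939.6 CPM in siKLF10 and 845 to 970.0 CPM in siCont libraries, and in A549 it was 1577 to 2187 CPM in the 4 libraries with TGFβ against 4692 to 5361 CPM in the 4 without it. KRT8 and KRT18 made up most of each sum, so the sums do not show how KRT19, EPCAM or CDH1 moved between groups. Of the markers listed for an organ, SOX9 was at 202 to 256 CPM in Panc1 and also at 38.7 to 133 CPM in A549. In Panc1 PDX1 had at most 3 counts in any library, and PTF1A, PRSS1, CPA1 and INS had 0 counts. In A549 NKX2-1 and the surfactant genes SFTPA1, SFTPB and SFTPC had at most 9 counts in any library. One library set stood apart: the summed level of 5 basal squamous markers (KRT5, KRT14, TP63, KRT6A and DSG3) ran from 26.7 to 72.4 CPM in the Panc1 siCont libraries, highest in siCont A, against 8.05 to 15.3 CPM in the other Panc1 libraries. The list was uneven in Panc1: KRT5 reached 60.5 CPM, while KRT14 had at most 2 counts in any library. LAMA3, LAMB3 and ITGB4 are also basal cell genes, so their Panc1 differences against siCont, and the line differences in their TGFβ effect, are given with and without siCont A. In A549 the same sum was 32.2 to 33.3 CPM in libraries labelled siKLF10+TGFβ, 14 to 14.7 CPM in TGFβ libraries, 4.77 to 5.55 CPM in libraries labelled siKLF10 and 2.38 to 2.96 CPM in siCont libraries, and its part in the A549 results on those genes was not tested. The sum of 6 fibroblast markers, made up mostly of COL1A1 in Panc1 and in A549, was 1825 to 2212 CPM in the 6 Panc1 libraries with TGFβ against 148 to 172 CPM in the 6 without it, and 171 to 599.8 CPM in the 4 A549 libraries with TGFβ against 7.66 to 15.8 CPM in the 4 without it. FAP was at 0.737 to 1.78 CPM with TGFβ in Panc1 against at most 0.0786 CPM without it, and at 4.17 to 5.22 CPM in A549 against at most 0.277 CPM. DCN stayed at or under 0.409 CPM in Panc1 and 2.40 CPM in A549 and LUM at or under 1.37 and 3.67 CPM. The part of these markers in the TGFβ results was not tested. In bulk RNA, fewer cells of a type and less RNA per cell cannot be told apart.

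Tests used the quasi-likelihood method of edgeR, and every adjusted p is a Benjamini-Hochberg value over all genes that passed the count filter in that fit. The ± after a log2 difference is its standard error, and a gene was called at an adjusted p under 0.05. In Panc1, 27 of the 37 members passed the filter among 13218 genes. The other 10 (ITGA4, ITGA8, ITGA9, ITGAD, ITGAL, ITGAM, ITGAX, ITGB6, ITGB7 and LAMB4) had at most 10 counts in any Panc1 library. In A549, 31 members passed among 14124 genes, and ITGA8, ITGA9, ITGAD, LAMA1, LAMA4 and LAMB4 did not. By RefSeq annotation of GRCh38.p14, 10 members overlap another counted gene (among them LAMB3 with MIR4260, ITGA4 with CERKL, ITGA1 with PELO, ITGB7 with ZNF740, ITGA7 with BLOC1S1, ITGAL with MIR4518, ITGAE with P2RX5, ITGB4 with GALK1 and LAMA5 with MIR4758). Whether the counting used strand is not stated in the labels or notes, so reads in those overlaps are uncertain.

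TGFβ moved most of the family in both lines. In Panc1 12 members rose and 7 fell in TGFβ against siCont libraries, beside 14% of all tested genes called higher and 15.1% called lower, with a median log2 difference of 0.25 over the members and −0.00485 over all genes. In A549 17 rose and 6 fell, beside 24.2% and 23.5% of all genes, with medians of 0.43 and −0.01. Between siKLF10+TGFβ and siKLF10 libraries of Panc1, 12 members were called higher and 9 lower, beside 22.6% and 22.3% of all genes. The same contrast between A549 libraries labelled so called 16 higher and 8 lower, beside 26.5% and 26.8% of all genes. The shares of members called, 70.4% in Panc1 and 74.2% in A549 for TGFβ against siCont, stood above the sum of the 2 background shares in each line.

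The siRNA contrasts called fewer members. In Panc1 2 members were called higher and 7 lower in siKLF10 against siCont libraries, beside 17.3% and 18.3% of all genes, and under TGFβ 4 were higher and 8 lower in siKLF10+TGFβ against TGFβ libraries, beside 21.1% and 20.6%. These shares lie near the background. In A549 10 members were higher and 5 lower in libraries labelled siKLF10, beside 9.57% and 9.96% of all genes, and under TGFβ 11 were higher and 3 lower, beside 14.4% and 13.9%. The A549 count without TGFβ rested on few libraries: it was 8 without siCont A, 9 without siCont B and 9 without siKLF10 B, against 15 with all.

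A test of the interaction asks whether the difference of siKLF10+TGFβ from siKLF10 libraries differed from that of TGFβ from siCont libraries. As the labels name no siRNA for the TGFβ group, a missing control siRNA there cannot be told apart from this term, as in the other contrasts that use this group. In Panc1 0 members were called higher and 3 lower (ITGB5, ITGA6 and LAMA5), beside 2.56% and 1.86% of all genes, while DESeq2 also called 3 members in all. In A549 4 were higher and 6 lower, beside 3.26% and 3.23%. That A549 count of 10 was 5 without siCont A, 2 without siCont B, 4 without siKLF10 A, 6 without siKLF10 B, 3 without TGFβ A and 5 without TGFβ B.

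The lines were compared in 1 model of all 20 libraries, in which 34 members passed among 15058 genes. For the TGFβ effect, 4 members had a higher and 12 a lower value in Panc1 than in A549, beside 17.1% and 13.8% of all genes. For the siRNA effect without TGFβ, 2 were higher and 9 lower in Panc1 than in A549, beside 8.59% and 8.65%, and under TGFβ 3 were higher and 10 lower, beside 7.52% and 12.3%. The members thus differed between lines mostly in 1 direction, toward larger values in A549.

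**Figure D1:**
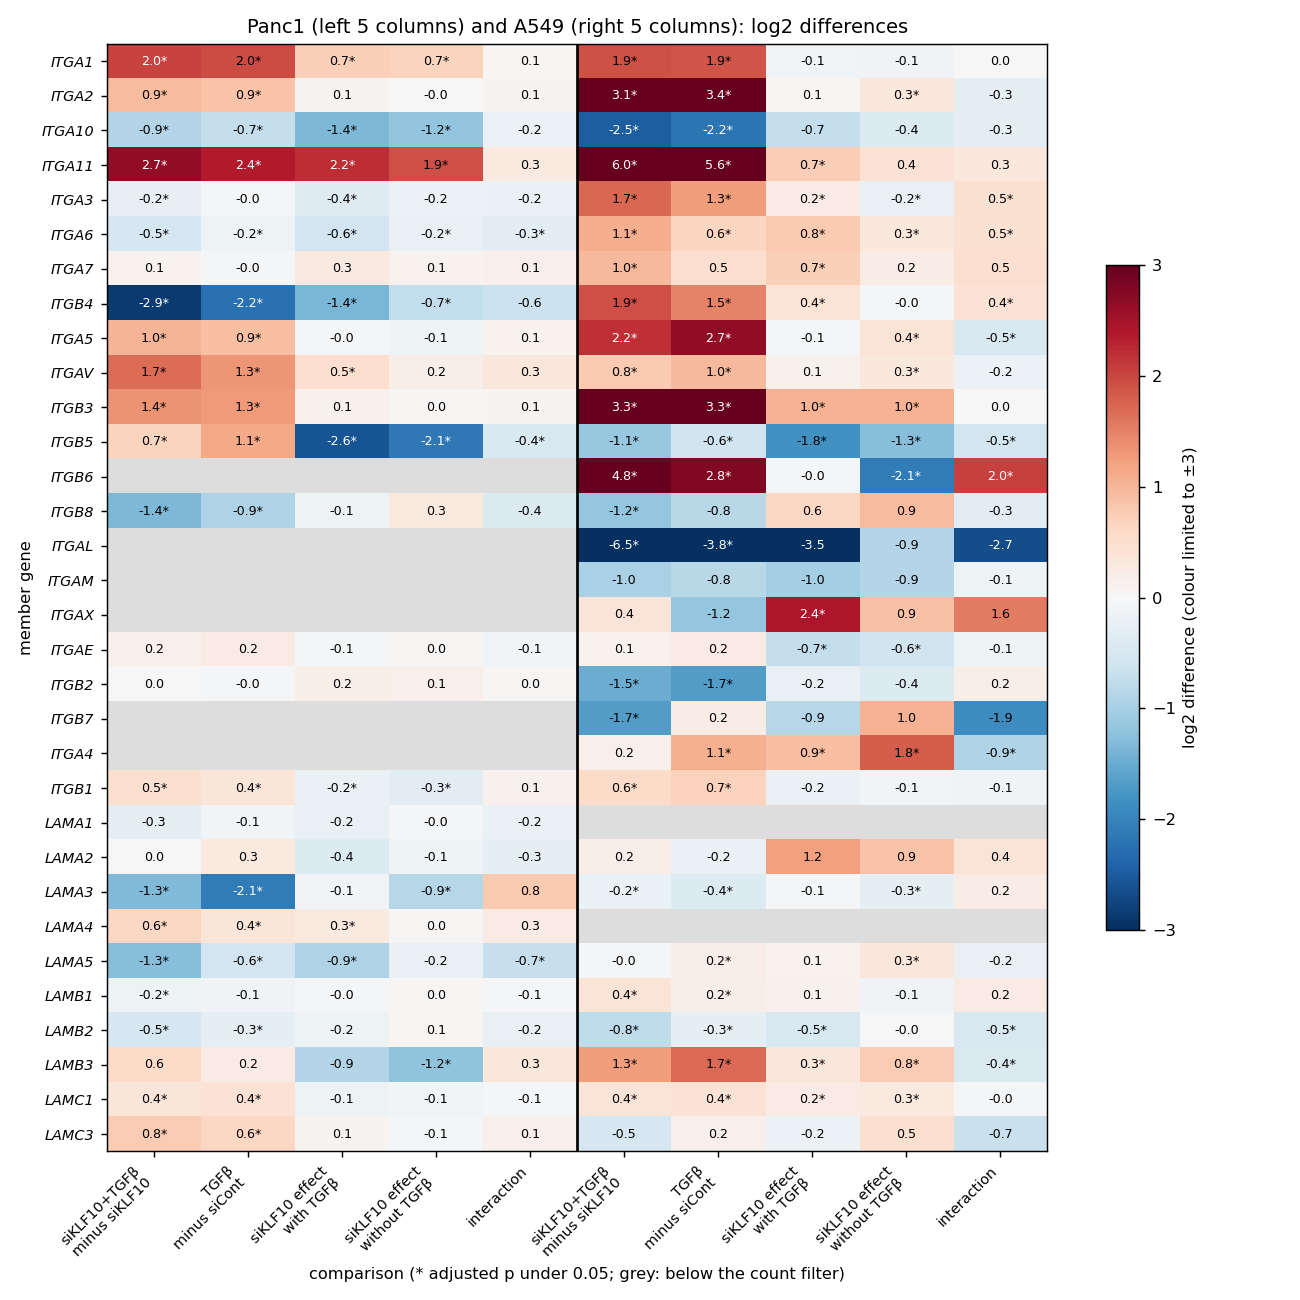
Log2 differences of members that passed the count filter in at least 1 line, for 5 comparisons in Panc1 (left) and the same 5 in A549 (right). Colour runs from blue (lower) to red (higher), an asterisk marks an adjusted p under 0.05, grey marks a member under the filter, and values of ITGAL and ITGAX rest on groups with 0 to 2 counts and depend on the prior count. ITGB5 is blue in all 4 siKLF10 columns, and ITGB4 is blue in Panc1 and red in A549 under TGFβ.

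Levels of different genes were compared per kb of exon (GENCODE v29 exon lengths, which are not those of the counting annotation, so ranks are approximate). ITGB1 had the highest level of the 37 in all 8 groups, from 390.5 CPM per kb in Panc1 siKLF10 to 697 CPM per kb in A549 TGFβ libraries. In Panc1 siCont libraries it was followed by LAMB1 (55.2 CPM per kb), ITGA6 (51.3), ITGB5 (48.9), ITGA3 (41.4) and ITGA2 (38.7). In A549 siCont libraries ITGB5 (115 CPM per kb), LAMB1 (113), ITGAV (88.4) and ITGA3 (83.0) followed.

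Among the laminins, which are the ligands, LAMB3 and LAMA3 changed in opposite directions with TGFβ against siCont in A549, although both are chains of laminin-332. LAMB3, the β3 chain, was at 481 and 481 CPM in A549 libraries labelled siKLF10+TGFβ and 385 and 367 CPM in TGFβ libraries. Without TGFβ, LAMB3 was at 202 and 207 CPM in libraries labelled siKLF10 and 126 and 119 CPM in siCont libraries. It rose 3.23-fold (log2 difference 1.69 ± 0.0762, adjusted p = 3.85e-14) with TGFβ and was higher by 1.70-fold (log2 difference 0.77 ± 0.0759, adjusted p = 3.13e-07) in libraries labelled siKLF10. LAMA3, the α3 chain that carries the integrin binding domains, did not rise with LAMB3: it was at 94.0 and 92.9 CPM in A549 libraries labelled siKLF10+TGFβ and 99.95 and 90.8 CPM in TGFβ libraries. Without TGFβ, LAMA3 was at 107 and 110.5 CPM in libraries labelled siKLF10 and 133 and 135 CPM in siCont libraries. LAMA3 fell 1.33-fold (log2 difference −0.42 ± 0.0825, adjusted p = 0.000257) with TGFβ. Its fall with TGFβ between the siKLF10-labelled groups lost its call in 10 of 12 alternatives. Its lower level in libraries labelled siKLF10 than in siCont libraries lost its call in 5 of 12.

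In Panc1 LAMA3 fell with TGFβ, and the LAMB3 call turned on 1 library. LAMA3 was at 1.70, 2.37 and 1.39 CPM in Panc1 siKLF10+TGFβ libraries and 2.34, 1.84 and 1.64 CPM in TGFβ libraries. Without TGFβ, LAMA3 was at 3.85, 5.65 and 4.22 CPM in siKLF10 libraries and 12.4, 5.74 and 6.86 CPM in siCont libraries. LAMA3 fell 4.31-fold (log2 difference −2.11 ± 0.286, adjusted p = 1.68e-05) with TGFβ, or by 1.71 on the log2 scale without siCont A. LAMB3 was at 1.51, 1.96 and 1.91 CPM in Panc1 siKLF10+TGFβ libraries and 2.34, 4.25 and 3.29 CPM in TGFβ libraries. Without TGFβ, LAMB3 was at 1.54, 1.36 and 0.679 CPM in siKLF10 libraries and 4.77, 1.65 and 1.87 CPM in siCont libraries. The TGFβ difference of LAMB3 was 0.24 ± 0.337 (adjusted p = 0.658) with all libraries and 0.88 (adjusted p = 0.0302) without siCont A. Both LAMA3 and LAMB3 were highest in siCont A, the library in which the sum of basal squamous markers was also highest. The part of those marker transcripts, or of any cells that carry them, in the result was not tested. The siKLF10 differences against siCont depended on that library: LAMB3 was at −1.22 ± 0.412 (adjusted p = 0.0293) with it and −0.58 (adjusted p = 0.225) without it, and LAMA3 at −0.86 ± 0.248 (adjusted p = 0.0124) with it and −0.46 (adjusted p = 0.0805) without it. LAMB3 also lost that call without siKLF10 B (adjusted p = 0.0614) or siKLF10 C (adjusted p = 0.118), and LAMA3 without siKLF10 C (adjusted p = 0.0518).

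The TGFβ effect on LAMB3 in Panc1 minus that in A549 was −1.37 ± 0.353 (adjusted p = 0.0065) on the log2 scale, or −0.74 without Panc1 siCont A (adjusted p = 0.0357), and all line differences are given in that direction. For LAMA3 the line difference was −1.61 ± 0.318 (adjusted p = 0.000619), or −1.22 without Panc1 siCont A. The siRNA effect on LAMB3 without TGFβ also differed between Panc1 and A549, by −1.96 ± 0.423 (adjusted p = 0.00405), or −1.32 without Panc1 siCont A (adjusted p = 0.00293).

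**Figure D2:**
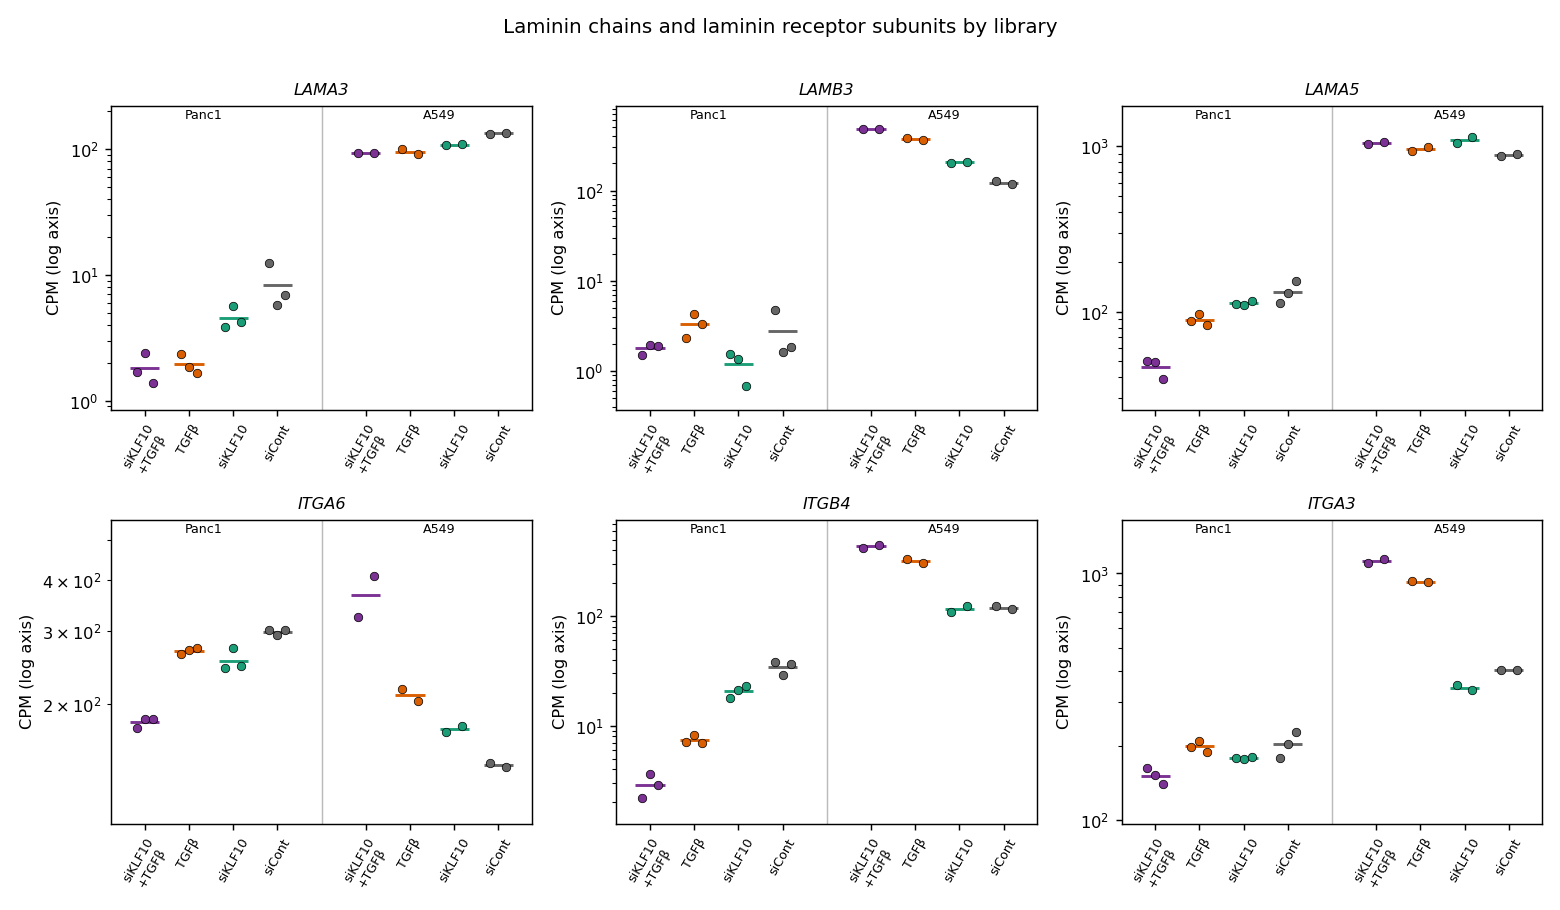
CPM on a log axis in every library for the laminin chains LAMA3, LAMB3 and LAMA5 (top) and for the laminin receptor subunits ITGA6, ITGB4 and ITGA3 (bottom), with siKLF10+TGFβ, TGFβ, siKLF10 and siCont groups from left to right within Panc1 and within A549. Points are libraries and bars are group means. In A549 LAMB3 stands higher in the 4 libraries with TGFβ than in the 4 without it, and ITGB4 falls with TGFβ in Panc1 and rises in A549.

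Promoter sequences of the 3 members that carry an exact AP-1 site near their start are shown because LAMB3 and ITGA5 both rose with TGFβ in A549 while LAMA3 fell in both lines. The windows are from RefSeq promoters of GRCh38.p14, 5′ to 3′ on the gene's strand, and capitals mark TGACTCA or its reverse complement TGAGTCA, with 30 bases on either side.
LAMB3, chr1:209651405-209651471, minus strand: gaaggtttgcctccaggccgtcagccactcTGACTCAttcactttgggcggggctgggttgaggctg
ITGA5, chr12:54419236-54419302, minus strand: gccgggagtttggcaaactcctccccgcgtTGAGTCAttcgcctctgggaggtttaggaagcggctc
LAMA3, chr18:23872865-23872987, plus strand: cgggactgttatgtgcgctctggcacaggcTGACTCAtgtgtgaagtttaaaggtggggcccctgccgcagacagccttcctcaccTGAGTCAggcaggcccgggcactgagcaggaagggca
The match lies at −67 from the start in LAMB3, at −6 in ITGA5, and at −125 and −69 in LAMA3. Searched on both strands over 250 bases before to 50 after the start, the 7 letters were found in 3 of the 32 promoters that the table holds for 25 members, beside 4.95% of all 35116 promoters. The GC box letters GGGCGG, to which Krüppel-like factors bind, were in 19 of the 32, those of ITGB5 and LAMB3 among them, beside 45% of all promoters, and the SMAD letters CAGAC in 15 of the 32, those of ITGAV and ITGA1 among them, beside 45.3%. A match of letters is a description of the sequence and not a measured site.

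The chains of the widely made laminin-511, laminin-521, laminin-411 and laminin-111 were led in level per kb by LAMB1 in the siCont libraries of both lines. LAMC1, the γ1 chain they share, rose 1.35-fold (log2 difference 0.44 ± 0.0587, adjusted p = 3.72e-06) with TGFβ in Panc1 and 1.35-fold (log2 difference 0.43 ± 0.0732, adjusted p = 4.49e-05) in A549. It was at 342, 378 and 372 CPM in Panc1 siKLF10+TGFβ libraries and 402, 407 and 400.1 CPM in TGFβ libraries. Without TGFβ, LAMC1 was at 268, 299.7 and 275 CPM in siKLF10 libraries and 284, 297 and 308 CPM in siCont libraries. In A549, LAMC1 was at 971 and 969 CPM in libraries labelled siKLF10+TGFβ and 833 and 769 CPM in TGFβ libraries. Without TGFβ, LAMC1 was at 762 and 730.0 CPM in libraries labelled siKLF10 and 641 and 608 CPM in siCont libraries. The TGFβ and siCont groups of LAMC1 did not overlap in either line. LAMB1, the β1 chain, stayed between 298 and 367 CPM in all 12 Panc1 libraries, with a TGFβ difference of −0.11 ± 0.0562 (adjusted p = 0.167), and between 633 and 883 CPM in the 8 A549 libraries, with one of 0.18 ± 0.0725 (adjusted p = 0.0434) that was not called without any 1 of the A549 siCont or TGFβ libraries (adjusted p from 0.0857 to 0.235) or with no count filter (adjusted p = 0.0811). LAMB2, the β2 chain that can replace LAMB1, fell with TGFβ by 1.22-fold (log2 difference −0.29 ± 0.0717, adjusted p = 0.00354) in Panc1 and 1.21-fold (log2 difference −0.28 ± 0.0833, adjusted p = 0.00851) in A549, where the call was lost without siCont B (adjusted p = 0.0724) or TGFβ A (adjusted p = 0.0747). Under TGFβ it was lower in A549 libraries labelled siKLF10+TGFβ (116 and 104 CPM) than in A549 TGFβ libraries (152 and 152 CPM), by 1.41-fold (log2 difference −0.49 ± 0.0846, adjusted p = 0.00016).

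LAMA5, the α5 chain of laminin-511 and laminin-521, was the α chain with the highest level per kb in both lines and fell with TGFβ in Panc1, while its A549 TGFβ difference was 0.19 ± 0.0763 (adjusted p = 0.0451). That A549 call was lost without any 1 of the A549 siCont or TGFβ libraries (adjusted p from 0.0754 to 0.272) or with no count filter (adjusted p = 0.0655). In Panc1, LAMA5 was at 50.5, 49.4 and 39.3 CPM in siKLF10+TGFβ libraries and 87.9, 96.0 and 83.0 CPM in TGFβ libraries. Without TGFβ, LAMA5 was at 110.5, 110.0 and 116 CPM in siKLF10 libraries and 113, 129 and 152 CPM in siCont libraries. It fell 1.49-fold (log2 difference −0.57 ± 0.0971, adjusted p = 0.000135) with TGFβ, and 2.42-fold (log2 difference −1.27 ± 0.102, adjusted p = 6.65e-09) with TGFβ in siKLF10 cells, an interaction of −0.70 ± 0.141 (adjusted p = 0.00681). The siKLF10+TGFβ libraries lay under all others, 1.90-fold below the TGFβ libraries (adjusted p = 1.07e-06). In A549 LAMA5 was at 1040.2 and 1068 CPM in libraries labelled siKLF10+TGFβ and 937 and 989 CPM in TGFβ libraries. Without TGFβ, LAMA5 was at 1044 and 1146 CPM in libraries labelled siKLF10 and 878 and 897 CPM in siCont libraries. The siRNA effect under TGFβ differed between Panc1 and A549 by −1.07 ± 0.136 (adjusted p = 1.06e-06), and the TGFβ effect by −0.68 ± 0.133 (adjusted p = 0.000168).

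LAMA4, the α4 chain of laminin-411 made by mesenchymal and endothelial cells, passed the filter in Panc1 only. There, LAMA4 was at 18.9, 22.8 and 21.4 CPM in Panc1 siKLF10+TGFβ libraries and 17.1, 18.3 and 16.2 CPM in TGFβ libraries. Without TGFβ, LAMA4 was at 13.3, 14.3 and 13.3 CPM in siKLF10 libraries and 13.2, 13.4 and 13.3 CPM in siCont libraries. LAMA4 rose 1.28-fold (log2 difference 0.36 ± 0.0986, adjusted p = 0.00764) with TGFβ and 1.53-fold (log2 difference 0.62 ± 0.0978, adjusted p = 2.18e-05) with TGFβ in siKLF10 cells. The siCont and siKLF10 libraries lay close together, and all 6 libraries with TGFβ lay above them. LAMA4 had 1 to 18 counts in the A549 libraries. LAMC3, the γ3 chain, was at 17.5, 15.6 and 14.9 CPM in Panc1 siKLF10+TGFβ libraries and 15.5, 16.5 and 14.0 CPM in TGFβ libraries. Without TGFβ, LAMC3 was at 8.98, 8.59 and 10.8 CPM in siKLF10 libraries and 7.63, 9.66 and 12.2 CPM in siCont libraries. LAMC3 rose 1.54-fold (log2 difference 0.62 ± 0.138, adjusted p = 0.00133) with TGFβ, while in A549 it was between 1.86 and 3.05 CPM. LAMA1 and LAMA2 were under 2.1 CPM in every library of both lines and no contrast called them, and LAMB4 had at most 8 counts in any library.

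Of the laminin receptors, ITGB4 and, by smaller differences, ITGA6 took opposite directions with TGFβ in the lines. ITGB4 is the β4 subunit that pairs only with ITGA6 and anchors keratin filaments through hemidesmosomes. In Panc1, ITGB4 was at 2.16, 3.60 and 2.87 CPM in siKLF10+TGFβ libraries and 7.01, 8.17 and 6.99 CPM in TGFβ libraries. Without TGFβ, ITGB4 was at 18.1, 21.0 and 23.1 CPM in siKLF10 libraries and 38.2, 28.9 and 36.5 CPM in siCont libraries. The 4 groups did not overlap. ITGB4 fell 4.72-fold (log2 difference −2.24 ± 0.133, adjusted p = 6.93e-12) with TGFβ and 1.67-fold (log2 difference −0.74 ± 0.117, adjusted p = 4.02e-05) in siKLF10 against siCont libraries, and without siCont A these differences were −2.16 and −0.66. Under TGFβ it was lower by 2.58-fold (log2 difference −1.37 ± 0.192, adjusted p = 6.64e-06) in siKLF10+TGFβ than in TGFβ libraries, and the interaction was −0.63 ± 0.228 (adjusted p = 0.124).

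In A549 ITGB4 was at 424 and 448 CPM in libraries labelled siKLF10+TGFβ and 333 and 308 CPM in TGFβ libraries. Without TGFβ, ITGB4 was at 108 and 123 CPM in libraries labelled siKLF10 and 123 and 115 CPM in siCont libraries. All 4 libraries with TGFβ lay above all 4 without it, and ITGB4 rose 2.82-fold (log2 difference 1.496 ± 0.0833, adjusted p = 1.43e-12). The TGFβ effect differed between Panc1 and A549 by −3.66 ± 0.159 (adjusted p = 4.3e-18), or −3.58 without Panc1 siCont A, and the siRNA effect under TGFβ by −1.82 ± 0.205 (adjusted p = 9.4e-08). GALK1 overlaps ITGB4 in the annotation.

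ITGA6, its only partner, kept a high level in both lines and moved less. In Panc1, ITGA6 was at 174, 183 and 183 CPM in siKLF10+TGFβ libraries and 264, 271 and 273 CPM in TGFβ libraries. Without TGFβ, ITGA6 was at 244, 273 and 247 CPM in siKLF10 libraries and 302, 295 and 302 CPM in siCont libraries. The siKLF10+TGFβ libraries lay below all others. It was 1.49-fold (log2 difference −0.57 ± 0.0568, adjusted p = 5.74e-08) lower in siKLF10+TGFβ than in TGFβ libraries, and the interaction was −0.34 ± 0.0797 (adjusted p = 0.0146). Its TGFβ difference against siCont was −0.16 ± 0.0560 (adjusted p = 0.0328), which was not called without any 1 of the siCont or TGFβ libraries, siKLF10 C or siKLF10+TGFβ B (adjusted p from 0.0512 to 0.129). In A549, ITGA6 was at 325 and 409 CPM in libraries labelled siKLF10+TGFβ and 217 and 203 CPM in TGFβ libraries. Without TGFβ, ITGA6 was at 170.4 and 177 CPM in libraries labelled siKLF10 and 144 and 139.8 CPM in siCont libraries. The A549 groups did not overlap, and ITGA6 rose 1.56-fold (log2 difference 0.64 ± 0.0888, adjusted p = 3.44e-06) with TGFβ and was 1.71-fold (log2 difference 0.78 ± 0.0872, adjusted p = 8.85e-07) higher in libraries labelled siKLF10+TGFβ than in TGFβ libraries. That siRNA difference under TGFβ had opposite signs in the lines, and Panc1 minus A549 was −1.39 ± 0.110 (adjusted p = 3.23e-11). The TGFβ effect on ITGA6 also had opposite signs, and Panc1 minus A549 was −0.72 ± 0.110 (adjusted p = 3.56e-06).

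ITGA3 binds laminin-332 and laminin-511 as a dimer with ITGB1. In A549, ITGA3 was at 1099.7 and 1144 CPM in libraries labelled siKLF10+TGFβ and 930.1 and 921 CPM in TGFβ libraries. Without TGFβ, ITGA3 was at 351 and 336 CPM in libraries labelled siKLF10 and 404 and 407 CPM in siCont libraries. ITGA3 rose 2.40-fold (log2 difference 1.26 ± 0.0712, adjusted p = 1.77e-12) with TGFβ. In Panc1, ITGA3 was at 162, 151 and 139 CPM in siKLF10+TGFβ libraries and 197, 209 and 189 CPM in TGFβ libraries. Without TGFβ, ITGA3 was at 178, 176 and 180.3 CPM in siKLF10 libraries and 178, 202 and 227 CPM in siCont libraries. Its Panc1 TGFβ difference was −0.04 ± 0.0744 (adjusted p = 0.762), with a fall of 1.31-fold (log2 difference −0.39 ± 0.0752, adjusted p = 0.000295) in siKLF10+TGFβ against TGFβ libraries. The TGFβ effect differed between Panc1 and A549 by −1.22 ± 0.111 (adjusted p = 1.14e-10). ITGA7, a laminin receptor of muscle, was at 0.481 to 1.31 CPM in Panc1, where no contrast called it, and at 4.15 to 10.8 CPM in A549. In A549 ITGA7 was not called in TGFβ against siCont libraries, where its mean levels were 5.81 and 4.40 CPM. It rose 1.96-fold (log2 difference 0.97 ± 0.204, adjusted p = 0.000397) with TGFβ between the siKLF10-labelled groups. Of the 4 laminin receptor subunits, 0 rose and 2 fell with TGFβ in Panc1, and 3 rose and 0 fell in A549, beside 14% called higher and 15.1% lower of all genes in Panc1 and 24.2% and 23.5% in A549. The 2 that fell were ITGB4 and ITGA6, whose call was lost in 9 of 16 alternatives.

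ITGB1, the β1 subunit shared by most of the α subunits, was at 2118, 2110.3 and 2235 CPM in Panc1 siKLF10+TGFβ libraries and 2469.9, 2257 and 2676 CPM in TGFβ libraries. Without TGFβ, ITGB1 was at 1561, 1561 and 1482 CPM in siKLF10 libraries and 2136, 1875 and 1713 CPM in siCont libraries. In A549, ITGB1 was at 2174 and 2668 CPM in libraries labelled siKLF10+TGFβ and 2845 and 2632 CPM in TGFβ libraries. Without TGFβ, ITGB1 was at 1662 and 1604 CPM in libraries labelled siKLF10 and 1784 and 1767 CPM in siCont libraries. It rose 1.29-fold (log2 difference 0.36 ± 0.0728, adjusted p = 0.000495) with TGFβ in Panc1 and 1.62-fold (log2 difference 0.70 ± 0.0828, adjusted p = 3.62e-07) in A549, and fell 1.24-fold (log2 difference −0.31 ± 0.0729, adjusted p = 0.00188) in siKLF10 against siCont libraries of Panc1. Its TGFβ differences were smaller than those of its partners ITGA1, ITGA2, ITGA5 and ITGA11 in each line. This did not hold for all partners. In Panc1 the differences of ITGA3 and ITGA6 were smaller in size than that of ITGB1, as was that of ITGA6 in A549. ITGA10 fell in both lines.

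All 4 collagen receptor α subunits were called with TGFβ in both lines, 3 higher and 1 lower, beside 14% called higher and 15.1% lower of all genes in Panc1 and 24.2% and 23.5% in A549. ITGA11, the receptor for fibrillar collagen of fibroblasts, was at 173 and 157 CPM in A549 libraries labelled siKLF10+TGFβ and 100.1 and 93.2 CPM in TGFβ libraries. Without TGFβ, ITGA11 was at 3.09 and 2.08 CPM in libraries labelled siKLF10 and 2.38 and 1.62 CPM in siCont libraries. It rose 49.9-fold (log2 difference 5.64 ± 0.155, adjusted p = 7.59e-18), and was 1.67-fold (log2 difference 0.74 ± 0.0946, adjusted p = 4.67e-06) higher in libraries labelled siKLF10+TGFβ than in TGFβ libraries. In Panc1, ITGA11 stayed low, at 5.56, 5.81 and 6.77 CPM in siKLF10+TGFβ libraries and 1.24, 1.52 and 1.16 CPM in TGFβ libraries. Without TGFβ, ITGA11 was at 1.28, 0.527 and 1.06 CPM in siKLF10 libraries and 0.0734, 0.236 and 0.400 CPM in siCont libraries, which held 1 to 6 counts, so that fitted differences from siCont depend on the prior count. The siKLF10+TGFβ libraries lay above all others, by 4.63-fold (log2 difference 2.21 ± 0.242, adjusted p = 2.44e-07) over the TGFβ libraries. The TGFβ difference against siCont was 2.38 ± 0.447 (adjusted p = 0.000244), or 3.01 without siCont C, and the siKLF10 difference was 1.93 ± 0.484 (adjusted p = 0.00353), or 2.56 without siCont C. The TGFβ effect differed between Panc1 and A549 by −3.19 ± 0.670 (adjusted p = 0.000346), or by −2.55 without Panc1 siCont C (adjusted p = 0.0453).

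ITGA1, which binds collagen of basement membranes, rose in both lines, with a line difference of 0.15 ± 0.197 (adjusted p = 0.622). In Panc1, ITGA1 was at 14.99, 18.3 and 16.9 CPM in siKLF10+TGFβ libraries and 11.1, 10.4 and 9.18 CPM in TGFβ libraries. Without TGFβ, ITGA1 was at 4.96, 3.69 and 3.70 CPM in siKLF10 libraries and 2.94, 2.83 and 2.07 CPM in siCont libraries. ITGA1 rose with TGFβ by 3.91-fold (log2 difference 1.97 ± 0.165, adjusted p = 2.73e-09). The siKLF10+TGFβ libraries lay 1.64-fold (log2 difference 0.71 ± 0.126, adjusted p = 0.000103) above the TGFβ libraries. In A549, ITGA1 was at 93.2 and 110.3 CPM in libraries labelled siKLF10+TGFβ and 109 and 103 CPM in TGFβ libraries. Without TGFβ, ITGA1 was at 26.7 and 28.2 CPM in libraries labelled siKLF10 and 28.5 and 31.3 CPM in siCont libraries. ITGA1 rose with TGFβ by 3.72-fold (log2 difference 1.90 ± 0.0988, adjusted p = 4.66e-13). The siRNA difference under TGFβ in A549 was −0.08 ± 0.0899 (adjusted p = 0.535), and Panc1 minus A549 was 0.76 ± 0.154 (adjusted p = 0.00052). PELO overlaps ITGA1 in the annotation.

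ITGA2, the collagen receptor of epithelia and platelets, had the highest level of the 4 in siCont libraries per kb, at 38.7 CPM per kb in Panc1 and 7.24 CPM per kb in A549. In Panc1, ITGA2 was at 520.3, 609 and 630.2 CPM in siKLF10+TGFβ libraries and 559, 563 and 555 CPM in TGFβ libraries. Without TGFβ, ITGA2 was at 276, 338 and 296 CPM in siKLF10 libraries and 293, 289 and 331.8 CPM in siCont libraries. In A549, ITGA2 was at 544 and 642 CPM in libraries labelled siKLF10+TGFβ and 594 and 528 CPM in TGFβ libraries. Without TGFβ, ITGA2 was at 67.4 and 72.8 CPM in libraries labelled siKLF10 and 56.6 and 57.3 CPM in siCont libraries. The TGFβ libraries of the lines overlapped, and the siCont libraries did not: ITGA2 rose 1.82-fold (log2 difference 0.87 ± 0.0765, adjusted p = 6.83e-09) in Panc1 and 10.4-fold (log2 difference 3.37 ± 0.0927, adjusted p = 7.59e-18) in A549, a line difference of −2.43 ± 0.131 (adjusted p = 6.02e-16). The siRNA differences under TGFβ were 0.08 ± 0.0756 (adjusted p = 0.444) in Panc1 and 0.05 ± 0.0816 (adjusted p = 0.677) in A549.

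ITGA10, known as a collagen receptor of cartilage, went the other way. In Panc1, ITGA10 was at 1.77, 1.64 and 1.56 CPM in siKLF10+TGFβ libraries and 4.45, 3.85 and 4.52 CPM in TGFβ libraries. Without TGFβ, ITGA10 was at 2.99, 3.09 and 3.17 CPM in siKLF10 libraries and 7.71, 5.50 and 7.66 CPM in siCont libraries. The 4 groups did not overlap, and ITGA10 fell 1.64-fold (log2 difference −0.71 ± 0.158, adjusted p = 0.00126) with TGFβ and 2.26-fold (log2 difference −1.17 ± 0.169, adjusted p = 1.2e-05) with siKLF10. In A549, ITGA10 was at 0.991 and 1.15 CPM in libraries labelled siKLF10+TGFβ and 2.07 and 1.29 CPM in TGFβ libraries. Without TGFβ, ITGA10 was at 5.65 and 6.93 CPM in libraries labelled siKLF10 and 9.22 and 7.54 CPM in siCont libraries. There it fell 4.56-fold (log2 difference −2.19 ± 0.267, adjusted p = 5.29e-07) with TGFβ, and the effect differed between Panc1 and A549 by 1.56 ± 0.319 (adjusted p = 0.000252).

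ITGA5, the fibronectin receptor subunit, rose in both lines. In Panc1, ITGA5 was at 186, 189 and 196 CPM in siKLF10+TGFβ libraries and 186, 204 and 193 CPM in TGFβ libraries. Without TGFβ, ITGA5 was at 96.2, 92.7 and 93.2 CPM in siKLF10 libraries and 99.4, 97.8 and 110.6 CPM in siCont libraries. ITGA5 rose with TGFβ by 1.88-fold (log2 difference 0.91 ± 0.0612, adjusted p = 6.01e-11). In A549, ITGA5 was at 466 and 458 CPM in libraries labelled siKLF10+TGFβ and 486 and 461 CPM in TGFβ libraries. Without TGFβ, ITGA5 was at 104 and 99.7 CPM in libraries labelled siKLF10 and 80.0 and 76.7 CPM in siCont libraries. ITGA5 rose with TGFβ by 6.35-fold (log2 difference 2.67 ± 0.0782, adjusted p = 2.3e-17). The libraries with TGFβ lay above those without it in each line, and the groups that differ only in the siRNA overlapped under TGFβ, with differences of −0.02 ± 0.0598 (adjusted p = 0.776) in Panc1 and −0.06 ± 0.0715 (adjusted p = 0.54) in A549. The TGFβ effect of ITGA5 in Panc1 minus that in A549 was −1.67 ± 0.1003 (adjusted p = 3.51e-15).

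ITGAV, the αv subunit, also rose in both lines. In Panc1, ITGAV was at 854, 1008 and 1042 CPM in siKLF10+TGFβ libraries and 714, 694 and 651 CPM in TGFβ libraries. Without TGFβ, ITGAV was at 273, 348 and 290.2 CPM in siKLF10 libraries and 261, 259 and 294 CPM in siCont libraries. ITGAV rose with TGFβ by 2.52-fold (log2 difference 1.33 ± 0.0858, adjusted p = 1.53e-10). The siKLF10+TGFβ libraries lay above the TGFβ libraries by 1.42-fold (log2 difference 0.50 ± 0.0838, adjusted p = 7.82e-05). In A549, ITGAV was at 1294 and 1361 CPM in libraries labelled siKLF10+TGFβ and 1189.8 and 1175 CPM in TGFβ libraries. Without TGFβ, ITGAV was at 738 and 818 CPM in libraries labelled siKLF10 and 641 and 633 CPM in siCont libraries. ITGAV rose with TGFβ by 1.95-fold (log2 difference 0.96 ± 0.0764, adjusted p = 5.87e-10). The TGFβ effect was larger in Panc1 than in A549 by 0.45 ± 0.125 (adjusted p = 0.00588).

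Its β partner ITGB5, which forms the vitronectin receptor αvβ5, was lower with siKLF10 in Panc1, with TGFβ and without it. In Panc1, ITGB5 was at 77.3, 78.5 and 76.0 CPM in siKLF10+TGFβ libraries and 459.7, 484 and 464 CPM in TGFβ libraries. Without TGFβ, ITGB5 was at 47.7, 47.6 and 49.3 CPM in siKLF10 libraries and 215, 199.6 and 227 CPM in siCont libraries. No 2 groups overlapped, and the highest siKLF10+TGFβ library lay under the lowest siCont library. ITGB5 rose 2.18-fold (log2 difference 1.13 ± 0.0572, adjusted p = 4.38e-13) with TGFβ, fell 4.43-fold (log2 difference −2.15 ± 0.0625, adjusted p = 2.05e-16) with siKLF10 and fell 6.04-fold (log2 difference −2.59 ± 0.0612, adjusted p = 2.21e-18) with siKLF10 under TGFβ. The interaction was −0.45 ± 0.0850 (adjusted p = 0.00289), with a rise of 1.6-fold in siKLF10+TGFβ over siKLF10 libraries, against 2.18-fold in TGFβ over siCont libraries.

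In A549 ITGB5 was at 99.9 and 83.5 CPM in libraries labelled siKLF10+TGFβ and 331 and 299 CPM in TGFβ libraries. Without TGFβ, ITGB5 was at 208 and 198 CPM in libraries labelled siKLF10 and 515 and 489 CPM in siCont libraries. It fell here with TGFβ, by 1.51-fold (log2 difference −0.60 ± 0.0864, adjusted p = 5.83e-06), and was 2.42-fold (log2 difference −1.28 ± 0.0881, adjusted p = 2.37e-09) lower in libraries labelled siKLF10 and 3.52-fold (log2 difference −1.82 ± 0.0913, adjusted p = 1.09e-11) lower under TGFβ. Those differences stood beside KLF10 differences of −0.05 and −0.29 in the same A549 contrasts and of −0.76 and −0.94 in Panc1, and whether the siRNA acted on ITGB5 through KLF10 was not tested. The A549 interaction was −0.54 ± 0.125 (adjusted p = 0.0109), and was not called without siCont B, siKLF10 A or TGFβ A (adjusted p = 0.0794, 0.0722 and 0.11). Panc1 minus A549 was 1.80 ± 0.105 (adjusted p = 1.64e-15) for the TGFβ effect, −0.85 ± 0.108 (adjusted p = 1.08e-06) for the siRNA effect without TGFβ and −0.82 ± 0.108 (adjusted p = 1.12e-06) for that under TGFβ.

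**Figure D3:**
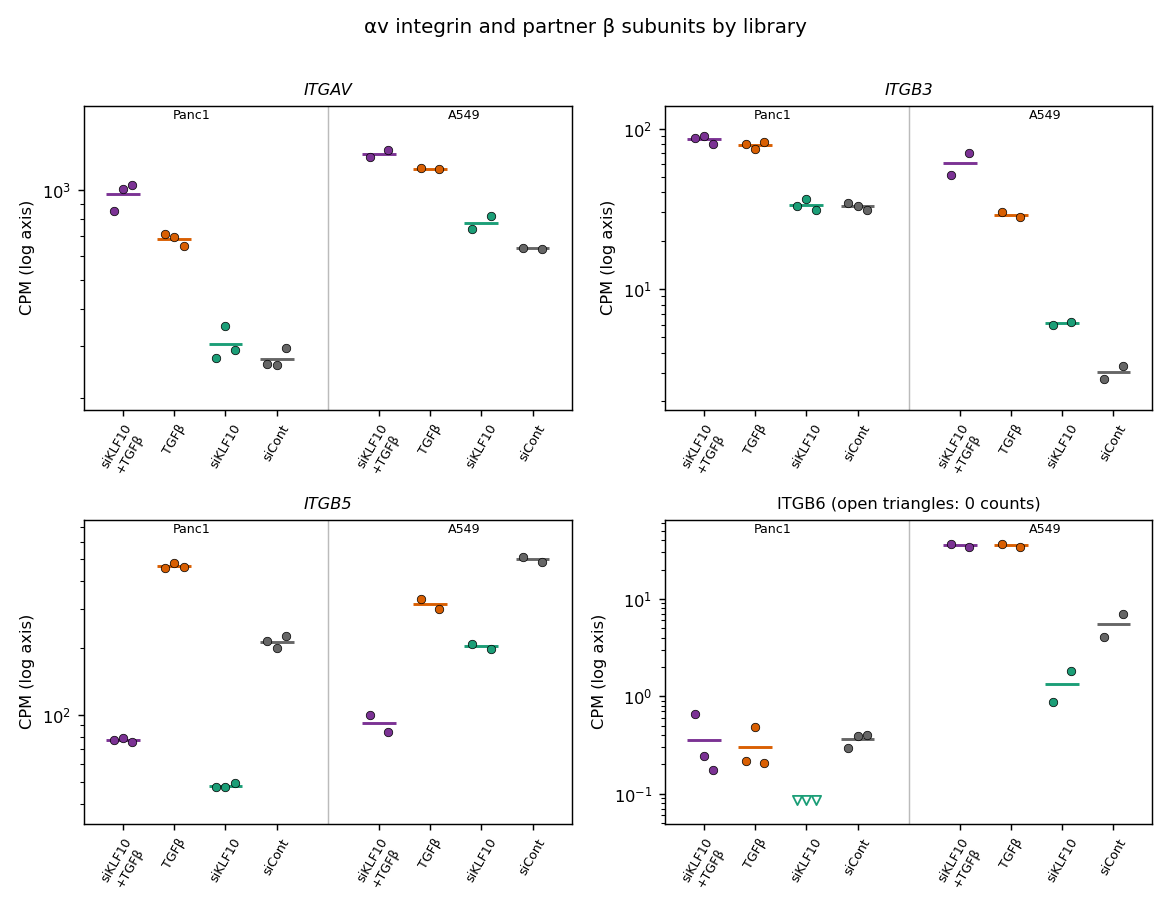
CPM on a log axis in every library for ITGAV and its partners ITGB3, ITGB5 and ITGB6, with siKLF10+TGFβ, TGFβ, siKLF10 and siCont groups from left to right within Panc1 and within A549. Points are libraries, bars are group means and open triangles are libraries with 0 counts. ITGB5 is lower in both siKLF10 groups than in the matching groups without it in each line, and ITGB3 is higher with TGFβ in each line.

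ITGB3, which with ITGAV binds vitronectin and fibronectin, rose in both lines. In Panc1, ITGB3 was at 87.5, 89.6 and 80.5 CPM in siKLF10+TGFβ libraries and 80.1, 74.5 and 83.0 CPM in TGFβ libraries. Without TGFβ, ITGB3 was at 32.8, 36.5 and 31.2 CPM in siKLF10 libraries and 34.4, 32.7 and 31.2 CPM in siCont libraries. ITGB3 rose with TGFβ by 2.40-fold (log2 difference 1.27 ± 0.0759, adjusted p = 8.18e-12) with siRNA differences of 0.03 ± 0.0803 (adjusted p = 0.777) without TGFβ and 0.12 ± 0.0712 (adjusted p = 0.169) with it. In A549, ITGB3 was at 51.2 and 70.2 CPM in libraries labelled siKLF10+TGFβ and 30.1 and 27.9 CPM in TGFβ libraries. Without TGFβ, ITGB3 was at 6.005 and 6.24 CPM in libraries labelled siKLF10 and 2.75 and 3.32 CPM in siCont libraries. The A549 groups did not overlap: ITGB3 rose 10.1-fold (log2 difference 3.34 ± 0.184, adjusted p = 1.5e-12) with TGFβ and was 2.06-fold (log2 difference 1.04 ± 0.126, adjusted p = 2.55e-06) higher in libraries labelled siKLF10+TGFβ than in TGFβ libraries. Without TGFβ the A549 siRNA difference was 1.04 ± 0.238 (adjusted p = 0.00362), which was not called without siCont A (adjusted p = 0.0545). The siRNA effect under TGFβ differed between Panc1 and A549 by −0.96 ± 0.146 (adjusted p = 1.09e-05). ITGA2B, the other partner of ITGB3, was at 0.226 to 1.05 CPM in Panc1 and 0.966 to 2.91 CPM in A549.

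ITGB6, the epithelial subunit of the TGFβ-releasing αvβ6, was at 36.5 and 34.5 CPM in A549 libraries labelled siKLF10+TGFβ and 36.9 and 34.4 CPM in TGFβ libraries. Without TGFβ, ITGB6 was at 0.883 and 1.80 CPM in libraries labelled siKLF10 and 4.09 and 6.999 CPM in siCont libraries. With TGFβ the siRNA groups overlapped, and without it the libraries labelled siKLF10 lay below the siCont libraries. ITGB6 rose 6.89-fold (log2 difference 2.78 ± 0.183, adjusted p = 2.91e-10) with TGFβ and 28.5-fold (log2 difference 4.83 ± 0.250, adjusted p = 6.99e-12) between the siKLF10-labelled groups, and fell 4.26-fold (log2 difference −2.09 ± 0.338, adjusted p = 0.000249) in libraries labelled siKLF10. The interaction was 2.05 ± 0.373 (adjusted p = 0.00242), and 1.51 without siKLF10 A (adjusted p = 0.0836). In Panc1 ITGB6 had 10, 3 and 2 counts in siKLF10+TGFβ, 3, 6 and 3 in TGFβ, 0, 0 and 0 in siKLF10 and 4, 5 and 6 in siCont libraries. The siCont level was at least 1.53-fold higher than the siKLF10 level, taken at the floor of 3 counts per library.

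ITGB8, the β subunit that also activates latent TGFβ, was the ITGAV partner that fell in Panc1. There, ITGB8 was at 2.49, 2.95 and 3.91 CPM in Panc1 siKLF10+TGFβ libraries and 2.92, 3.53 and 3.77 CPM in TGFβ libraries. Without TGFβ, ITGB8 was at 5.90, 10.5 and 7.01 CPM in siKLF10 libraries and 6.90, 5.89 and 6.46 CPM in siCont libraries. ITGB8 fell with TGFβ by 1.90-fold (log2 difference −0.92 ± 0.205, adjusted p = 0.0013). In A549, ITGB8 was at 1.09 and 1.42 CPM in libraries labelled siKLF10+TGFβ and 0.690 and 1.007 CPM in TGFβ libraries. Without TGFβ, ITGB8 was at 2.47 and 3.61 CPM in libraries labelled siKLF10 and 1.26 and 1.88 CPM in siCont libraries. The TGFβ difference of ITGB8 in A549 was −0.84 ± 0.464 (adjusted p = 0.146). Of the 7 RGD receptor subunits, 4 rose and 1 fell with TGFβ in each line, among 5 that passed the filter in Panc1 and 6 in A549, beside 14% called higher and 15.1% lower of all genes in Panc1 and 24.2% and 23.5% in A549. However, ITGB5 was among the risers in Panc1 and was the 1 that fell in A549. ITGA8 passed in neither: it had 9 and 23 counts in A549 libraries labelled siKLF10+TGFβ, 6 and 3 in TGFβ libraries and 0 in the 4 libraries without TGFβ, so that its level was at least 3.16-fold higher with TGFβ between the siKLF10-labelled groups at the floor of 3 counts.

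Per kb, the makeup of the β3, β5, β6 and β8 transcripts that compete for ITGAV changed with these moves. ITGB1, which also pairs with ITGAV and with many other α subunits, was left out of this sum. Its group means were 390 to 697 CPM per kb, against at most 115 for ITGB5, so the shares are not shares of all ITGAV partners. In Panc1 ITGB5 made up 46.4 to 48.1% of their sum in siKLF10+TGFβ libraries, 84.6 to 86.4% in TGFβ libraries, 53.5 to 58.9% in siKLF10 libraries and 84.8 to 86.8% in siCont libraries, and ITGB3 made up most of the rest. The TGFβ and siCont ranges overlapped in Panc1, and the siKLF10 groups did not overlap with the others. In A549 ITGB5 made up 44.8 to 53.9% in libraries labelled siKLF10+TGFβ, 83.2 to 83.7% in TGFβ libraries, 95.4 to 96.3% in libraries labelled siKLF10 and 97.9 to 98.6% in siCont libraries. ITGB6 held 17.3 to 18.3% of the A549 sum in libraries labelled siKLF10+TGFβ and 8.69 to 8.93% in TGFβ libraries, against at most 1.31% without TGFβ, while in Panc1 it held at most 0.367%.

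**Figure D4:**
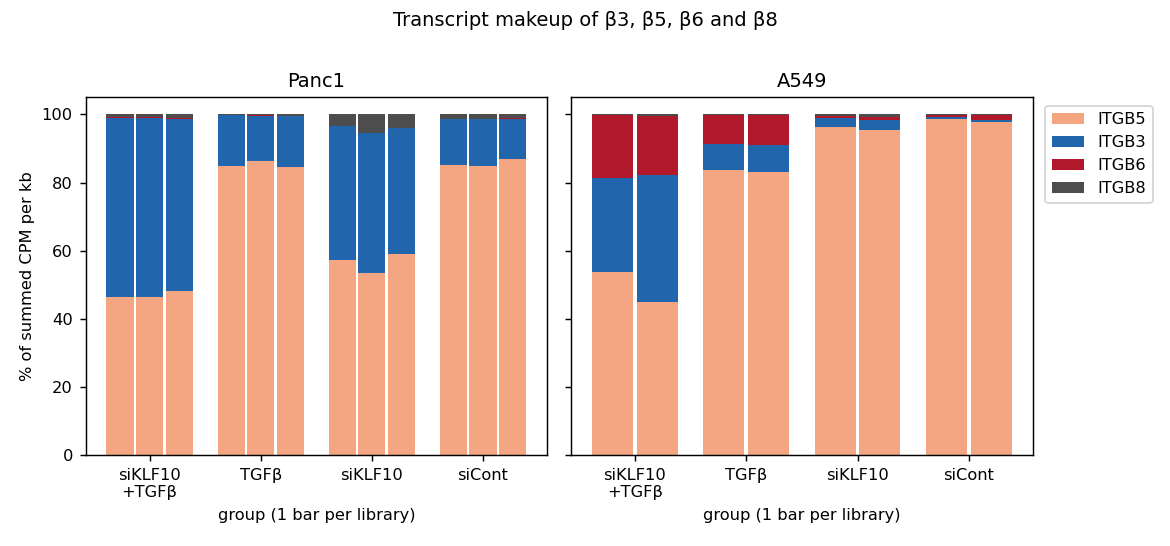
Share of ITGB5, ITGB3, ITGB6 and ITGB8 in the sum of their CPM per kb, with 1 bar per library and siKLF10+TGFβ, TGFβ, siKLF10 and siCont groups from left to right in Panc1 and in A549. The partner ITGB1 is not part of the sum. ITGB5 holds 46.4 to 58.9% in the 6 Panc1 libraries with siKLF10 and 84.6 to 86.8% in the other 6, and in A549 it holds 44.8 to 53.9% in the siKLF10+TGFβ libraries.

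Of the subunits of leukocyte integrins, ITGAD, ITGAL, ITGAM, ITGAX and ITGB7 had at most 10 counts in any Panc1 library, while ITGB2 and ITGAE passed the filter in both lines. ITGB2, the common β subunit of that family, was at 0.694 and 1.15 CPM in A549 libraries labelled siKLF10+TGFβ and 0.789 and 1.58 CPM in TGFβ libraries. Without TGFβ, ITGB2 was at 3.09 and 2.36 CPM in libraries labelled siKLF10 and 4.31 and 3.14 CPM in siCont libraries. It fell 3.18-fold (log2 difference −1.67 ± 0.373, adjusted p = 0.000827) with TGFβ, a call lost without TGFβ A (log2 difference −1.16, adjusted p = 0.0641), and was between 0.866 and 1.57 CPM in Panc1. ITGAL, its partner in the lymphocyte receptor LFA-1, had 0 and 0 counts in libraries labelled siKLF10+TGFβ, 2 and 0 in TGFβ libraries, 14 and 5 in libraries labelled siKLF10 and 22 and 25 in siCont libraries. The siKLF10+TGFβ-labelled group was at least 4.18-fold lower than the siKLF10-labelled group at the floor of 3 counts, and the fitted log2 difference of TGFβ against siCont libraries, −3.85 (adjusted p = 0.000199), ranged from −7.41 without TGFβ A to −3.15 without TGFβ B. Of the haematopoietic markers in A549, CD3E was at 0 in every library and PTPRC was at or under 0.269 CPM, so these defining markers were at or near 0, and a sum of 14.8 to 52.8 CPM over 5 markers came mostly from CD68.

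ITGAM, the α subunit of Mac-1, was at 0.656 to 5.11 CPM in A549 and no contrast called it with the count filter. With no count filter it was called lower in TGFβ and in siKLF10-labelled than in siCont libraries of A549 (adjusted p = 0.0216 and 0.0258, against 0.0637 and 0.0862 with the filter). The siKLF10+TGFβ-labelled libraries were then also called lower than the TGFβ and siKLF10-labelled libraries (adjusted p = 0.0399 and 0.0301). ITGAX had 15 and 23 counts in A549 libraries labelled siKLF10+TGFβ, 2 and 2 in TGFβ libraries, 10 and 9 in libraries labelled siKLF10 and 10 and 4 in siCont libraries, and 0 in the Panc1 siKLF10+TGFβ libraries, so no fold between lines is given. Its A549 call between siKLF10+TGFβ-labelled and TGFβ libraries was lost without TGFβ A (adjusted p = 0.111). ITGAE, the αE subunit that pairs with ITGB7 to bind E-cadherin, was at 18.9 and 20.8 CPM in A549 libraries labelled siKLF10+TGFβ and 30.9 and 34.0 CPM in TGFβ libraries. Without TGFβ, ITGAE was at 20.04 and 16.8 CPM in libraries labelled siKLF10 and 29.5 and 27.5 CPM in siCont libraries. It was lower in the siKLF10-labelled groups, by 1.65-fold (log2 difference −0.72 ± 0.119, adjusted p = 9.26e-05) with TGFβ and 1.51-fold (log2 difference −0.59 ± 0.123, adjusted p = 0.00156) without it, and in Panc1 it stayed between 15.4 and 21.6 CPM with no call. ITGB7 had 3 and 10 counts in A549 libraries labelled siKLF10+TGFβ and 22 and 6 in libraries labelled siKLF10, and a call between them was lost without siKLF10 A (adjusted p = 0.413) and under DESeq2 (adjusted p = 0.091). ITGAD and ITGA9 had at most 6 and 4 counts in any library.

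ITGA4, which with ITGB1 binds VCAM1 and fibronectin, passed the filter in A549 only. It was at 11.8 and 15.7 CPM in A549 libraries labelled siKLF10+TGFβ and 7.29 and 7.34 CPM in TGFβ libraries. Without TGFβ, ITGA4 was at 12.2 and 13.3 CPM in libraries labelled siKLF10 and 3.72 and 3.59 CPM in siCont libraries. Both siKLF10-labelled groups lay above the groups without it, by 3.52-fold (log2 difference 1.82 ± 0.191, adjusted p = 7.51e-07) without TGFβ and 1.88-fold (log2 difference 0.91 ± 0.171, adjusted p = 0.000389) with it. TGFβ raised it by 2.10-fold (log2 difference 1.07 ± 0.213, adjusted p = 0.000274) against siCont, with a difference of 0.16 ± 0.153 (adjusted p = 0.391) between the siKLF10-labelled groups. In Panc1 it had at most 3 counts in any library. CERKL overlaps ITGA4 in the annotation.

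**Figure D5:**
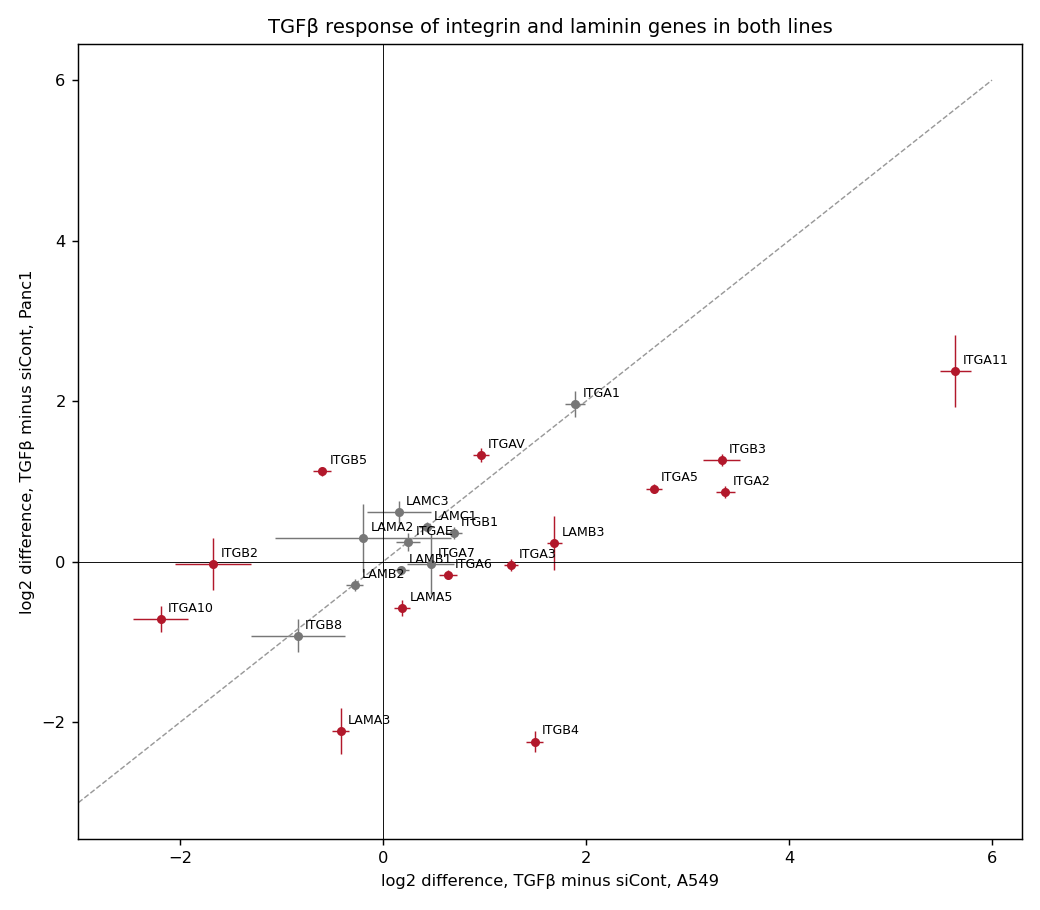
Log2 difference of TGFβ against siCont in Panc1 (vertical) and A549 (horizontal) for members that passed the count filter in both lines. Points are members, bars are standard errors, the dashed line marks equal effects, and red marks members whose effects differed between lines in the joint model at an adjusted p under 0.05. ITGB4, ITGB5, ITGA6, ITGA3, LAMA5 and LAMB1 are among the members in the quadrants of opposite direction, some of them close to an axis. ITGA11 lies farthest to the right of the members shown.

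The proteins that tie integrins to the cytoskeleton and to their membrane partners were described by 2 lists. Of 26 adhesion adaptors, 12 rose and 5 fell with TGFβ in Panc1 and 20 rose and 3 fell in A549, beside 14% called higher and 15.1% lower of all genes in Panc1 and 24.2% and 23.5% in A549. Their median log2 differences were 0.18 and 0.60, against −0.00485 and −0.01 over all genes. TNS1, a tensin that links integrin tails to actin, rose 9.60-fold (log2 difference 3.26 ± 0.298, adjusted p = 1.04e-08) in Panc1 and 11.5-fold (log2 difference 3.52 ± 0.0924, adjusted p = 3.73e-18) in A549. FERMT1, the epithelial kindlin that activates integrins, rose 10.7-fold (log2 difference 3.42 ± 0.0847, adjusted p = 1.4e-18) in A549. RSU1, a partner of the ILK and LIMS1 complex, was lower in siKLF10 than in siCont libraries of Panc1 by 2.05-fold (log2 difference −1.04 ± 0.0711, adjusted p = 2.42e-10) and in A549 libraries labelled siKLF10 by 1.86-fold (log2 difference −0.89 ± 0.0985, adjusted p = 1.45e-06). Of 6 hemidesmosome and tetraspanin partners, 2 rose and 2 fell with TGFβ in Panc1 and 3 rose and 0 fell in A549, set against the same background shares. CD82, a tetraspanin bound to laminin receptors, rose 2.59-fold (log2 difference 1.37 ± 0.133, adjusted p = 2.39e-08) in Panc1 and 4.29-fold (log2 difference 2.10 ± 0.153, adjusted p = 1.47e-10) in A549, and the hemidesmosomal linker PLEC was at −0.30 ± 0.0815 (adjusted p = 0.00797) in Panc1 and 0.89 ± 0.0828 (adjusted p = 7.48e-09) in A549. PLEC had the sign of ITGB4 in each line, while CD82, which rose in both, did not in Panc1. Whether PLEC and ITGB4 changed together was not tested.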

How the data were processed

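Poly(A) RNA-seq counts of 20 libraries were used. The authors deposited 1 table of whole-number counts per library, with 23368 genes and 5 summary lines that name no gene, which were kept out of library sizes and tests. Per the submitters' processing notes, TopHat, Bowtie2, HTSeq 0.6.0, DESeq2 and build hg19 were named, with no role or order, and per the labels' protocols RNA was taken with TRIzol and libraries were directional. Reads that the counting assigned to no feature made up 33.6 to 36.9% in Panc1 and 57.6 to 60.1% in A549, out of these reads, gene counts and ambiguous reads. The part of this gap in differences between lines was not tested. The deposited tables of the authors' own comparisons were not used here.

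Counts were tested with edgeR 4.0.16 in R 4.3.3 (TMM, filterByExpr with a minimum count of 10 and a total of 15, robust quasi-likelihood, a mean per group, each line alone), and lines were compared in 1 fit of all libraries. Alternatives were DESeq2 1.42.0, its size factors in edgeR, no filter, a replicate block, and each library left out in turn, which assumes that a lone A549 library varies like the other groups. The scripts were tested on simulated data. Replicate pairs differed by a chi-square of 2.06 to 12.5 per degree of freedom over 16 pairs, so none was counted as 1 library. Libraries of like letter had correlated deviations over 0.1 in 2 of 18 Panc1 pairs, at most 0.312, between siKLF10 A and siKLF10+TGFβ A. With 2 libraries per A549 group, the A and B correlations are equal by construction, and the highest was 0.116. Letters were therefore not taken as pairing.

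Values in every library were given for members that passed the filter in a line and had a call of at least 1 on the log2 scale there, or that share a complex with such a member, and for some others chosen after their values were seen. From each list of partner genes at most 4 called genes of largest change were named per comparison. The members and lists were chosen with earlier results of these data known. Of the members, 1 is included in the counts and not otherwise reported here.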

Additional observations from a re-analysis of the deposited data

Results flagged for a closer look

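Members whose effect differed in a direct test between siRNA groups or between lines are listed here with the log2 value of that difference, and the values given in the text above carry their errors. In Panc1 the TGFβ effect was lower after siKLF10 for ITGA6 (−0.34), ITGB5 (−0.45) and LAMA5 (−0.70).

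In A549 the TGFβ effect was higher between the siKLF10-labelled groups for ITGA3 (0.46), ITGA6 (0.46), ITGB4 (0.44) and ITGB6 (2.05). It was lower there for ITGA4 (−0.91), ITGA5 (−0.47), ITGB5 (−0.54), LAMB2 (−0.49) and LAMB3 (−0.44). Every one of these A549 calls was lost under at least 1 of the alternatives run.

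The TGFβ effect was higher in Panc1 than in A549 for ITGA10 (1.56), ITGAV (0.45), ITGB2 (1.72) and ITGB5 (1.80), of which the ITGB2 call was lost without A549 siCont A or TGFβ A (adjusted p = 0.0615 and 0.136). It was lower in Panc1 for the integrins ITGA2 (−2.43), ITGA3 (−1.22), ITGA5 (−1.67), ITGA6 (−0.72), ITGA11 (−3.19), ITGB3 (−1.99), ITGB4 (−3.66) and ITGB6 (−3.002). Among laminins it was lower in Panc1 for LAMA3 (−1.61), LAMA5 (−0.68) and LAMB3 (−1.37).

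The siRNA effect without TGFβ was higher in Panc1 than in A549 for ITGA1 (0.78) and ITGAE (0.64). The ITGA1 call was lost without A549 siCont B, A549 siKLF10 A, Panc1 siCont C or Panc1 siKLF10 A (adjusted p from 0.0522 to 0.0714), and that of ITGAE without A549 siCont A or siKLF10 B (adjusted p = 0.0549 and 0.0739). It was lower in Panc1 for ITGA5 (−0.51), ITGA6 (−0.53), ITGB3 (−0.98), ITGB4 (−0.68), ITGB5 (−0.85), LAMA5 (−0.53), LAMB3 (−1.96) and LAMC1 (−0.33). The ITGB3 call was lost without A549 siCont A (adjusted p = 0.0657), and that of LAMC1 without A549 siCont B or siKLF10 A (adjusted p = 0.102 and 0.0891).

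Under TGFβ the siRNA effect was higher in Panc1 than in A549 for ITGA1 (0.76), ITGA11 (1.43) and ITGAE (0.62, a call lost without A549 TGFβ B, adjusted p = 0.0550). It was lower in Panc1 for ITGA3 (−0.67), ITGA6 (−1.39), ITGB3 (−0.96), ITGB4 (−1.82), ITGB5 (−0.82), LAMA5 (−1.07), LAMB3 (−1.24, a call lost in 9 of 24 alternatives, adjusted p up to 0.0924) and LAMC1 (−0.42). The ITGAX value of −6.43 rests on a Panc1 group with 0 counts in every library and depends on the prior count. Since KLF10 changed less in A549 than in Panc1, the part of siRNA strength in these line differences was not tested.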

How the results depend on the processing

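The 190 called member effects were each refitted under the alternatives, which gave 3014 results. Of these results, 2865 kept the direction and call of the effect, 149 kept the direction and lost the call, and 0 changed direction. The lost calls belonged to 45 effects. With a library left out, the A549 interaction count ranged from 2 to 11 members against 10 with all, and the A549 count for libraries labelled siKLF10 against siCont from 8 to 17 against 15. The other counts stayed within 1.5 times of their value under every alternative run. With the replicate block the A549 interaction count was 10, the A549 siKLF10-labelled count 16 and the Panc1 TGFβ count 19, and the replicate block moved no count of calls by over 1.5 times. DESeq2 called 8 members in the A549 interaction and 14 in A549 libraries labelled siKLF10.

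With 2 libraries per A549 group, A549 siRNA and interaction calls are the least certain. Fitted differences from groups of few counts, such as ITGA11 in Panc1 siCont and ITGAL in A549 TGFβ libraries, depend on the prior count. Lengths per kb come from another annotation than the counting, so ranks between genes are approximate. Labels do not say whether libraries came from separate cultures.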

Other observations

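Of 12 basement membrane partners of laminins, 6 rose and 4 fell with TGFβ in A549, beside 24.2% called higher and 23.5% lower of all genes. In Panc1 1 rose and 5 fell, beside 14% and 15.1%. COL4A1 and COL4A2, the chains of the common type IV collagen, rose 10.5-fold (log2 difference 3.39 ± 0.0792, adjusted p = 5.99e-19) and 9.26-fold (log2 difference 3.21 ± 0.0808, adjusted p = 1.79e-18) in A549, and COL4A2 rose 2.30-fold (log2 difference 1.20 ± 0.298, adjusted p = 0.00347) in Panc1. NID1, the nidogen that joins laminin to type IV collagen, rose 6.80-fold (log2 difference 2.77 ± 0.248, adjusted p = 4.38e-09) in A549 and stood at 0.11 ± 0.0575 (adjusted p = 0.146) in Panc1. SPARC, a collagen-binding matrix protein, rose 18.5-fold (log2 difference 4.21 ± 0.168, adjusted p = 9.25e-14) in A549, and was lower by 2.41-fold (log2 difference −1.27 ± 0.129, adjusted p = 6.73e-07) in libraries labelled siKLF10+TGFβ than in TGFβ libraries. BCAM, a membrane receptor for the laminin α5 chain, fell 2.12-fold (log2 difference −1.08 ± 0.105, adjusted p = 2.79e-08) in Panc1, where LAMA5 fell too.

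Of 12 latent TGFβ genes and matrix ligands of the collagen, fibronectin and RGD receptors, 9 passed the filter in Panc1, where 6 rose and 0 fell with TGFβ, and 12 passed in A549, where 9 rose and 3 fell, against the same shares of all genes. COL1A1, the main fibrillar collagen chain, rose 12.3-fold (log2 difference 3.62 ± 0.0782, adjusted p = 1.66e-19) in Panc1 and 27.0-fold (log2 difference 4.75 ± 0.106, adjusted p = 2.96e-19) in A549. FN1, the fibronectin that ITGA5 binds, rose 6.28-fold (log2 difference 2.65 ± 0.105, adjusted p = 9.37e-13) in Panc1 and 4.25-fold (log2 difference 2.09 ± 0.0871, adjusted p = 1.08e-14) in A549. VTN, the vitronectin that ITGB3 and ITGB5 dimers bind, fell 19.8-fold (log2 difference −4.31 ± 0.236, adjusted p = 1.07e-12) in A549.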
